A study of Homo sapiens with 4 samples.

Results

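The genes described here encode 7 enzymes that make the deoxynucleotides of DNA, namely RRM1, RRM2, TYMS, DUT, DTYMK, TK1 and DCK. They were chosen by symbol from the 23362 genes of the deposited table, and each was listed once. Earlier results of these data were known when they were chosen. All 7 were lowest in the cells carrying wild-type KIAA1324, at 65.3% to 73.5% of the control level, and all 7 were next lowest in the cells carrying the N-glycosylation mutant.

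MKN28, a human gastric adenocarcinoma cell line, had been given doxycycline-inducible (tet-on) constructs by retroviral infection and drug selection. The groups were Luc (luciferase, the control), KIAA1324 WT, KIAA1324 3NQ, in which the asparagines of the N-glycosylation sites are replaced by glutamine, and KIAA1324 ΔTM, which lacks the transmembrane domain. Poly(A) RNA was sequenced as 1 library per group, so differences could not be checked against replicates and no test was made. Whether and for how long doxycycline was given before this RNA was taken is not stated.

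Deoxynucleotides are made from ribonucleotides by ribonucleotide reductase, a complex of the large subunit RRM1 and the small subunit RRM2. Thymidylate, the nucleotide that is particular to DNA, is made from dUMP, and DUT yields dUMP by cleaving dUTP. TYMS methylates dUMP to dTMP, and DTYMK phosphorylates dTMP to dTDP. The salvage kinases TK1 and DCK instead phosphorylate deoxynucleosides that the cell takes up or recycles. RRM2, TYMS and TK1 are known for their high expression in S phase of dividing cells, and TYMS and RRM2 are targets of anticancer drugs.

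The values are FPKM, fragments counted per length of transcript and per mapped fragments of the library, which allow levels to be compared between genes. The table holds no read counts, which leaves the sequencing depth unknown, and no interval can be given for a value. The FPKM summed to between 560540 and 585104 per library. The FPKM of KIAA1324 itself was 2.86 (Luc), 11185 (WT) and 8197 (3NQ), and it was listed at 0 in the ΔTM library, below the control, although the label of that library names a KIAA1324 construct. That library is therefore called the library labelled ΔTM. All 7 epithelial markers examined (CDH1, CLDN4, CLDN7, EPCAM, KRT18, KRT19 and KRT8) were present in every library, at FPKM from 174 to 8501. Their summed FPKM was 13920 (Luc), 8182 (WT), 10594 (3NQ) and 12151 (library labelled ΔTM), the same order as that of most of the enzymes. KRT8 (−0.91 as a log2 ratio of WT to Luc) and KRT18 (−0.80) carried this sum, while the other 5 markers had ratios from −0.22 to −0.064 and only 2 of the 7 followed the full order. The part of this in the enzyme values was not tested. Of 7 gastric or intestinal markers, however, 4 (CDH17, TFF1, TFF3 and VIL1) were listed at 0 throughout, and none of the others exceeded 1.96. Of 8 markers of leukocytes, endothelium and fibroblasts, CD68 and COL1A1 alone had an FPKM of at least 1 in every library, and PECAM1 was not found. Their summed FPKM ranged from 17.2 to 20.5.

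The genes lie on 6 chromosomes of GRCh37, and only RRM2 and DTYMK share one, at opposite ends of chromosome 2. RRM1 (ENSG00000167325) is at chr11:4115937-4160106 and RRM2 (ENSG00000171848) at chr2:10262455-10271545, both on the plus strand. TYMS (ENSG00000176890) is at chr18:657604-673578 and DUT (ENSG00000128951) at chr15:48623208-48635570, also on the plus strand, while DTYMK (ENSG00000168393) is at chr2:242615157-242626406 on the minus strand. TK1 (ENSG00000167900) is at chr17:76170160-76183314 on the minus strand and DCK (ENSG00000156136) at chr4:71858255-71896631 on the plus strand. Their reference transcripts span from 5 exons (DTYMK) to 19 exons (RRM1).

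Because the genes have no common locus, the sequences before their start sites were searched for short motifs of cell cycle promoters. These were CCAAT, the site of NF-Y, TTTCGCGC or TTTGGCGC for E2F, TTTGAA, the core of the CHR element, and GGGCGG, the GC box, each on both strands. RefSeq gives 12 start sites for the 7 genes, and the 250 bases before each were searched. CCAAT was found before 4 of the 7 genes, RRM1, RRM2, DTYMK and TK1, and in 5 of the 12 windows, whereas 32.0% of all 35116 windows hold it. The E2F letters were found for DUT alone, in 1 of the 12 windows, compared to 0.968% of all windows. TTTGAA was present in 2 of the 12 windows (13.3% of all) and GGGCGG in 9 (42.6% of all). Neither CCAAT nor the E2F letters named above were found before TYMS or DCK. Other forms of the E2F site were not searched, so their absence is not shown. The matches describe the letters only. Windows of the same gene can overlap, so a site can be counted in more than 1 window. By gene, CCAAT was found for 4 of 7, compared to 37% of all genes. The E2F letters were found for 1 (1.2% of all genes), TTTGAA for 2 (16.1%) and GGGCGG for 6 (46.2%). The 20 bases around the CCAAT and E2F matches in the last 150 bases before a start are shown, 5′ to 3′ on the strand of the gene, so that their surroundings can be compared. A further CCAAT, 249 bases before another RRM2 start, is not shown. The matched letters are in capitals (ATTGG is CCAAT on the other strand), and the positions are exact matches to GRCh37.
RRM2, chr2:10262736-10262755, 123 bases before the start: ggcgcagCCAATgggaaggg
RRM2, chr2:10262766-10262785, 93 bases before the start: ggcacagCCAATgggaaggg
RRM2, chr2:10262793-10262812, 66 bases before the start: accaaagCCAATgggaaggg
RRM1, chr11:4115880-4115899, 28 bases before the start: tccatatCCAATggggccca
DTYMK, chr2:242626310-242626329, 92 bases before the start: gccccggCCAATcccttcga
DTYMK, chr2:242626242-242626261, 24 bases before the start: acgccggCCAATgggagctc
TK1, chr17:76183198-76183217, 77 bases before the start: ggcgctgATTGGccccatgg
TK1, chr17:76183167-76183186, 46 bases before the start: gctcgtgATTGGccagcacg
DUT, chr15:48624361-48624380, 27 bases before the start: ttcggtTTTGGCGCgctccc

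RRM2 thus has 3 CCAAT boxes in like surroundings among these stretches, each followed by gggaaggg, DTYMK and TK1 hold 2 each in these stretches, and RRM1 holds 1. The RRM1 box lies outside any annotated exon, and the 150 bases before the RRM1 start (chr11:4115765-4115914) read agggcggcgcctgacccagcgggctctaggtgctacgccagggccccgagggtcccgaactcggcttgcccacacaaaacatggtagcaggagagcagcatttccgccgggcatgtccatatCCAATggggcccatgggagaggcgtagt. The stretches shown for RRM2, DTYMK, TK1 and DUT lie before the start used here but wholly inside exons of other annotated transcripts of the same genes.

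The enzymes were well expressed in the control cells. In Luc, DUT (FPKM 161.6), TK1 (141.8) and RRM2 (134.3) were the highest, followed by RRM1 (75.6), DTYMK (56.3), TYMS (54.7) and DCK (28.1). DUT was thus among the 4.8% most abundant of the 11769 genes that reached FPKM 1 in any library, and DCK among the 34.3% most abundant. The same order of levels held in WT and 3NQ, and in the library labelled ΔTM it differed only in that TYMS (54.6) stood above DTYMK (52.5). These neighbours were close in every library, 1.10-fold apart or less, as were TK1 and RRM2 in Luc, 3NQ and the library labelled ΔTM, at most 1.06-fold apart. Without replicates their order cannot be resolved.

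**Figure D1:**
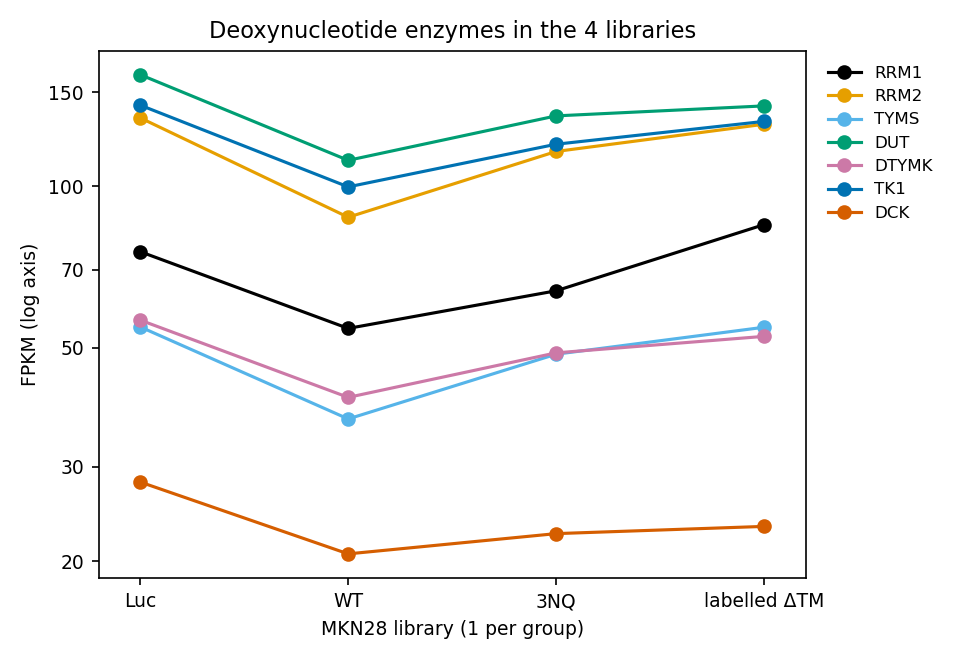
FPKM (log axis) of the 7 enzymes in the 4 MKN28 libraries, 1 point per gene and library, with lines only to guide the eye. Every gene has its lowest point in WT, from 20.7 for DCK to 111.9 for DUT, and its next lowest in 3NQ.

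To ask how the construct libraries differed from the control, the log2 ratio to Luc of each FPKM plus a pseudocount of 1 was taken. A gene was called where it differed by 1.5-fold or more (0.58 on the log2 scale), and a milder threshold, a decrease by 20% or more (0.32 on the log2 scale), was also used. The ratios of the 3 constructs share the Luc library and are not independent of each other. In bulk RNA, fewer cells making these enzymes and less of their RNA per cell cannot be told apart.

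Of the ribonucleotide reductase subunits, RRM2, the small subunit whose supply limits the enzyme through the cell cycle, had an FPKM of 134.3 (Luc), 87.6 (WT), 116.2 (3NQ) and 130.6 (library labelled ΔTM). It was lowest in WT and close to the control in the library labelled ΔTM. Relative to Luc, its log2 ratio was −0.61 (WT), −0.21 (3NQ) and −0.039 (library labelled ΔTM), and RRM2 alone of the 7 was called lower in WT at 1.5-fold. Its ratio in WT was among the lowest 2.88% of all genes.

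RRM1, the large catalytic subunit, had an FPKM of 75.6 (Luc), 54.4 (WT), 63.9 (3NQ) and 84.9 (library labelled ΔTM). It was the one enzyme that was higher in the library labelled ΔTM than in the control. The ratio was −0.47 (WT), −0.24 (3NQ) and 0.17 (library labelled ΔTM), so that RRM1 spanned the widest range of the 7, 1.56-fold from its lowest to its highest library. As the subunits moved unequally, the RRM2 to RRM1 ratio of FPKM was 1.78 (Luc), 1.61 (WT), 1.82 (3NQ) and 1.54 (library labelled ΔTM).

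Among the thymidylate enzymes, TYMS, which makes dTMP, had an FPKM of 54.7 (Luc), 36.9 (WT), 48.7 (3NQ) and 54.6 (library labelled ΔTM). WT stood apart from the other libraries, and the library labelled ΔTM was at the control level. The log2 ratios were −0.56, −0.17 and −0.0019, respectively, and that in WT was among the lowest 3.76% of genes. ENOSF1, a gene on the opposite strand, has exons over 59.95% of the TYMS reference transcript in the newer annotation used here. Whether the library kept strand is not stated. ENOSF1, named after its values were seen, had an FPKM of 12.5 (Luc), 10.2 (WT), 11.4 (3NQ) and 12.4 (library labelled ΔTM), so that the share of its reads in the TYMS values was not tested.

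DUT, the dUTPase, had an FPKM of 161.6 (Luc), 111.9 (WT), 135.4 (3NQ) and 141.3 (library labelled ΔTM), all construct libraries being below the control. Its log2 ratio was −0.53 (WT), −0.25 (3NQ) and −0.19 (library labelled ΔTM). The annotation names 8 DUT pseudogenes whose copies could take or give reads, which leaves the DUT values uncertain. The part of such reads was not tested. RRM2 has 3 named pseudogenes and TYMS 2, while none was found under the names of the other 4 genes.

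DTYMK, the thymidylate kinase, had an FPKM of 56.3 (Luc), 40.4 (WT), 49.0 (3NQ) and 52.5 (library labelled ΔTM). The ratios were −0.47, −0.20 and −0.099. DTYMK was thus nearer to the control than the median enzyme in WT and 3NQ, and it was itself the median enzyme in the library labelled ΔTM. The DUT to TYMS ratio of FPKM was 2.95 (Luc), 3.04 (WT), 2.78 (3NQ) and 2.59 (library labelled ΔTM).

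Of the salvage kinases, TK1, the cytosolic thymidine kinase, had an FPKM of 141.8 (Luc), 99.8 (WT), 119.9 (3NQ) and 132.2 (library labelled ΔTM). Its ratios of −0.50, −0.24 and −0.10 were nearly those of the group median. AFMID, the kynurenine formamidase gene, starts 83 bases from TK1 on the opposite strand and is the only such head-to-head neighbour with values in the deposited table within 2000 bases of any of the 7. AFMID, singled out for this position after its values were seen, had ratios of −0.75 (WT), −0.33 (3NQ) and −0.24 (library labelled ΔTM), from an FPKM of 25.6 in Luc.

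DCK, the deoxycytidine kinase, had an FPKM of 28.1 (Luc), 20.7 (WT), 22.5 (3NQ) and 23.2 (library labelled ΔTM). Here the control stood apart and the construct libraries were close together, with ratios of −0.43, −0.31 and −0.26. DCK therefore had the smallest difference of the 7 in WT and the largest in the other construct libraries. In part of its reference transcript, 7.94%, it shares exons with MOB1B on the same strand.

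Taken as a group, the 7 enzymes had in WT a median log2 ratio of −0.50, with a range from −0.61 to −0.43, whereas the median of all 11769 genes was −0.0049. At 1.5-fold, 1 of the 7 (RRM2) was lower, compared to 3.34% of all genes. All 7 were lower by at least 20%, compared to 12.8% of all genes and to 11.4% of the 5162 genes at FPKM 20 or more in Luc, the range in which all 7 lie. All 7 were below the control in WT at some size, as were 50.9% of all genes. When the libraries were rescaled to equal sums of FPKM without KIAA1324, which alone made up 1.98% of the FPKM in WT, RRM2 had a ratio of −0.55 and was no longer called at 1.5-fold.

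In 3NQ, all 7 were below Luc, as were 57% of all genes, with a median of −0.24 and a range from −0.31 to −0.17, compared to a median of −0.038 over all genes. None of the 7 reached 1.5-fold (2.57% of all genes) and none was lower by 20%, as 11.7% of all genes and 8.1% of those at FPKM 20 or more in Luc were. In the library labelled ΔTM, the median was −0.099 and the range from −0.26 to 0.17, compared to −0.060 over all genes. Again none was lower by 1.5-fold (1.57% of all genes) or by 20% (8.31% of all genes and 5.02% of those at FPKM 20 or more in Luc), and 6 of the 7 were below Luc, as were 63% of all genes, with RRM1 above it. For the library labelled ΔTM the enzymes thus lay close to the genes at large.

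**Figure D2:**
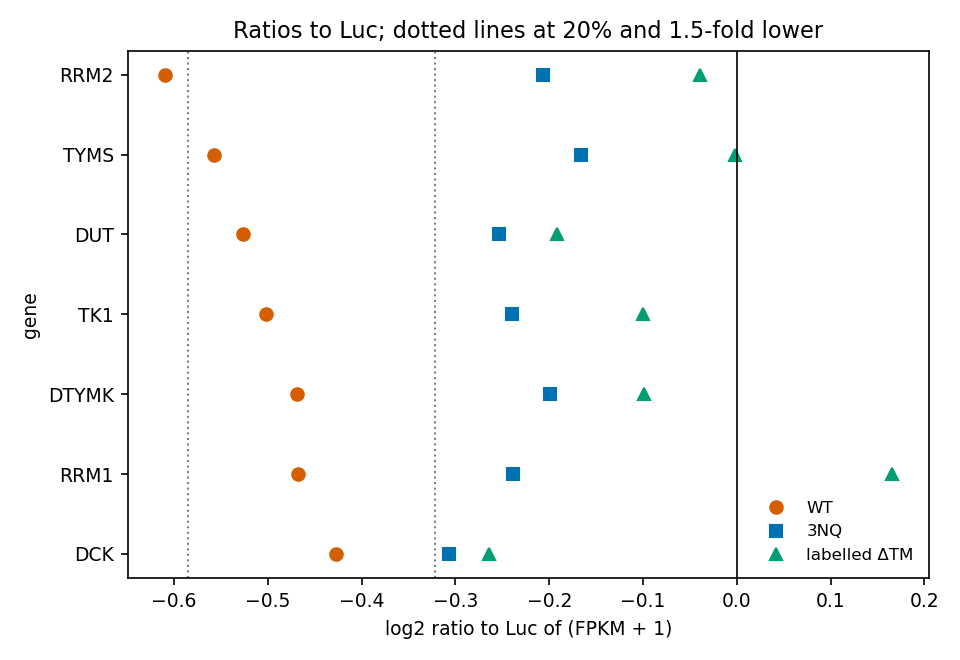
Log2 ratio to Luc of FPKM plus 1 for each of the 7 enzymes in WT (circles), 3NQ (squares) and the library labelled ΔTM (triangles), with dotted lines at 20% lower and at 1.5-fold lower. All circles lie left of the 20% line and only that of RRM2 (−0.61) lies left of the 1.5-fold line, while no square or triangle reaches either.

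**Figure D3:**
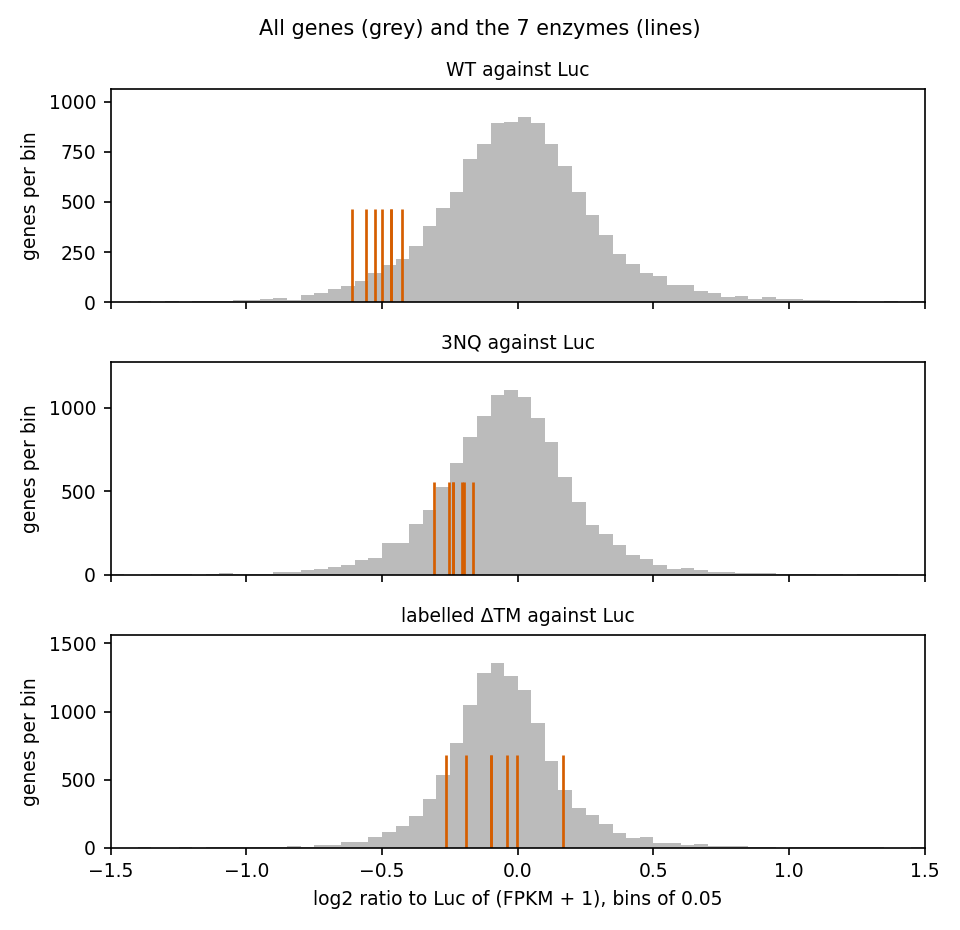
Histograms of the log2 ratios to Luc of the 11769 genes (grey, bins of 0.05, ratios beyond the axis not drawn) in each construct library, with a line for each of the 7 enzymes. The lines lie in the lower tail in WT (median −0.50), on the lower slope in 3NQ (−0.24) and across the bulk of the genes in the library labelled ΔTM (−0.099).

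To ask whether the levels differed between the wild-type and mutant constructs, WT was set against 3NQ directly, without Luc. This does not isolate the N-glycosylation sites, as the FPKM of KIAA1324 itself was 11185 in WT and 8197 in 3NQ. The paper also reports a shorter half-life for the mutant protein than for the wild-type protein. The part of these differences in the enzyme values was not tested. All 7 were lower in WT, as were 45.1% of all genes, with a median of −0.27 and a range from −0.40 (RRM2) to −0.12 (DCK). None reached 1.5-fold, compared to 1.58% of all genes, and 2, RRM2 and TYMS (−0.39), were lower by at least 20%, compared to 6.76%. WT was also set against the library labelled ΔTM, which does not address the transmembrane domain, as KIAA1324 was listed at 0 there. All 7 were again lower in WT, as were 43% of all genes, with a median of −0.40. RRM1 was called at 1.5-fold (−0.63), 1 of 7 compared to 2.91% of all genes, and 6 of the 7, all but DCK (−0.16), were lower by at least 20%, compared to 10.5%. RRM2 (−0.57) and TYMS (−0.56) stood just inside the 1.5-fold line in this comparison, and both passed it when scaling was by the median of ratios or by the upper quartile. Compared with the library labelled ΔTM, all 7 were lower in 3NQ, as were 45.7% of all genes, with a median of −0.14, and only RRM1 (−0.40) was lower by at least 20%, compared to 7.75% of all genes.

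The order WT, 3NQ, library labelled ΔTM, from low to high, was therefore shared by all 7 enzymes, compared to 18.2% of all genes, and it held for all 7 under each rescaling. WT was the lowest library for 7 of 7, compared to 26.7% of all genes and 30.3% of those at FPKM 20 or more in Luc. The full order, with Luc highest, held for 6 of 7, compared to 8.21% and 10.2% of genes, respectively, with RRM1 as the exception. The position of Luc depended on the scaling, because TYMS (0.060) and RRM2 (0.023) were above Luc in the library labelled ΔTM after rescaling by the median of ratios, which left 4 of 7 in the full order.

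The enzymes have counterparts that do a like reaction outside S phase. RRM2B is the small subunit induced by p53, and TK2 and DGUOK are the mitochondrial thymidine and deoxyguanosine kinases. RRM2B had an FPKM of 20.2 (Luc), 19.5 (WT), 19.5 (3NQ) and 19.9 (library labelled ΔTM), which amounts to a flat profile beside that of RRM2. The log2 ratio in WT was −0.047, compared to −0.61 for RRM2, and the RRM2 to RRM2B ratio of FPKM went from 6.64 in Luc to 4.48 in WT, with 5.96 (3NQ) and 6.58 (library labelled ΔTM) for the others. TK2 was low, with an FPKM from 4.25 to 5.26, and had a ratio of −0.18 in WT, compared to −0.50 for TK1. DGUOK, at FPKM 47.4 (Luc) and 43.6 (WT), had a ratio of −0.12, compared to −0.43 for DCK. In 3NQ, by contrast, TK2 (−0.25) and DGUOK (−0.24) were about as far below Luc as TK1 (−0.24) and DCK (−0.31). In the library labelled ΔTM, DGUOK was at 0.12 and DCK at −0.26, a difference of −0.38 that was wider than that in WT (−0.31).

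Thymidylate synthesis draws its methyl group from the folate cycle. Of 9 folate genes, 2 were called lower at 1.5-fold in WT, compared to 3.34% of all genes. None was called higher, compared to 396 of all 11769 genes, and the median was −0.19. SHMT1, the cytosolic serine hydroxymethyltransferase, had an FPKM of 63.7 (Luc), 37.8 (WT), 41.8 (3NQ) and 54.9 (library labelled ΔTM), with ratios of −0.74, −0.60 and −0.21, so that it was called in 3NQ as well. MTHFD1, the cytosolic trifunctional enzyme, had an FPKM of 47.7 (Luc), 28.7 (WT), 37.5 (3NQ) and 41.1 (library labelled ΔTM), and a ratio of −0.71 in WT. Their mitochondrial counterparts were near the control in WT, at −0.079 for SHMT2 and −0.092 for MTHFD2, and above it in 3NQ, at 0.18 and 0.13.

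By their medians, the pathways that make the ribonucleotide precursors differed less in WT. For 14 purine synthesis genes the median in WT was −0.20. None of the 14 was called in either direction, compared to 789 of all 11769 genes. However, 13 were below Luc in WT, compared to 50.9% of all genes. WT was the lowest library for 13, compared to 26.7% of all genes. HPRT1, the purine salvage enzyme, had the lowest ratio of the 14, at −0.52. Of 5 pyrimidine synthesis genes, none was called, with a median of −0.090. At so low a share of calls over all genes, the lack of calls in lists this short says little. In 3NQ the medians of these lists were −0.027 and 0.035.

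Among 17 other genes of deoxynucleotide supply and turnover, none was called higher in WT, and the median was −0.079. Only 1 was called lower, compared to 3.34% of all genes. That gene, NME2, a nucleoside diphosphate kinase, was also called in the other construct libraries. The FPKM of NME2 was 63.6 (Luc), 16.9 (WT), 13.1 (3NQ) and 19.9 (library labelled ΔTM). NME2 shares its exons with the readthrough gene NME1-NME2, whose FPKM was 360.2 in Luc and from 377.2 to 436.8 in the other libraries, and the division of reads between these entries is uncertain. Of 11 genes of deoxynucleoside transport and breakdown, UPP1, the uridine phosphorylase, was called higher in WT (0.71) and in 3NQ (0.72), from an FPKM of 18.6 in Luc. Of all 11769 genes, 396 were called higher in WT and 208 in 3NQ. None of this list was called lower in WT, compared to 3.34% of all genes, and its median was −0.055 in WT.

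**Figure D4:**
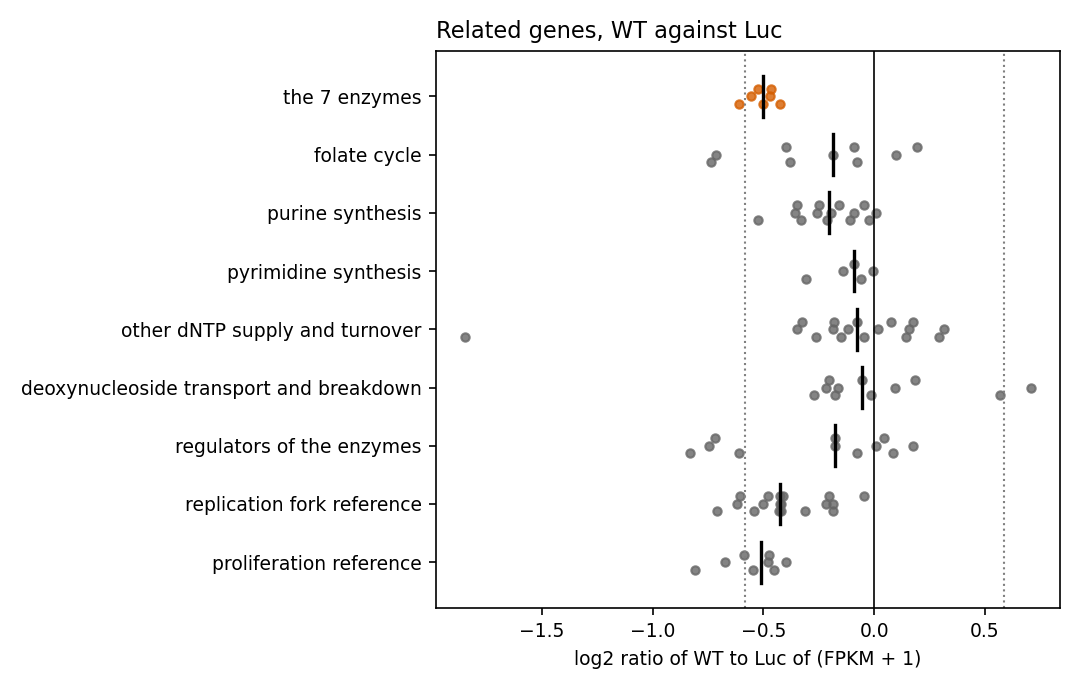
Log2 ratio of WT to Luc of FPKM plus 1 for the genes of each list, with a bar at the list median and dotted lines at 1.5-fold. The 7 enzymes (median −0.50) lie beside the replication fork (−0.42) and proliferation genes (−0.51), whereas the purine (−0.20), pyrimidine (−0.090) and other supply genes (−0.079) lie nearer 0.

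The enzymes did not stand apart from other genes of dividing cells. Of 18 replication fork genes, all were below Luc in WT, as were 50.9% of all genes, and the median was −0.42. Of the 18, 3 (LIG1, PRIM1 and RFC4) were called lower at 1.5-fold, compared to 3.34% of all genes. A decrease by at least 20% was seen for 12, compared to 12.8% of all genes. PCNA, the sliding clamp, had an FPKM of 284 (Luc), 212 (WT), 246 (3NQ) and 267 (library labelled ΔTM), the same order as the 6 enzymes, and a ratio of −0.42 in WT. All 8 proliferation genes were lower by at least 20% in WT, compared to 12.8% of all genes, with a median of −0.51. Of the 8, TOP2A (−0.81), CDK1 (−0.67) and BUB1 (−0.59) were called lower at 1.5-fold, compared to 3.34% of all genes. MKI67, the proliferation marker, had an FPKM of 29.0 (Luc), 21.8 (WT), 25.3 (3NQ) and 23.1 (library labelled ΔTM). In 3NQ, the medians were −0.18 for the replication fork and −0.28 for the proliferation genes, and in the library labelled ΔTM −0.051 and −0.17. The part of the share of dividing cells in the enzyme values was not tested.

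Of 11 genes that control the transcription or turnover of these enzymes or their supply, 4 were called lower in WT and none higher. Of all 11769 genes, 3.34% were lower in WT at 1.5-fold and 396 genes were higher. E2F1, an activator of S phase genes, had an FPKM of 34.7 (Luc), 19.1 (WT), 25.5 (3NQ) and 33.4 (library labelled ΔTM), with ratios of −0.83, −0.43 and −0.054. E2F2 (−0.72), SKP2 (−0.75) and CCNF (−0.61) were the others. CCNF is the F-box protein through which RRM2 is degraded, and its FPKM was 10.1 (Luc), 6.25 (WT), 7.40 (3NQ) and 9.89 (library labelled ΔTM).

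The genes whose 3 ratios to Luc lay nearest to the medians of the 7 enzymes, by Euclidean distance among 8664 genes at FPKM 5 or more throughout, were DEPDC1, FAM13A, CEP78, MCM10 and H2AFV, at distances from 0.024 to 0.037. MCM10, a replication initiation factor, had ratios of −0.49 (WT), −0.23 (3NQ) and −0.068 (library labelled ΔTM). The medians were taken from the enzymes themselves, so the distances of the enzymes are partly fixed by this choice. TK1 sets the median in WT, RRM1 in 3NQ and DTYMK in the library labelled ΔTM. TK1 lay nearer to the medians than any other gene, and 10 other genes lay nearer than DTYMK. RRM1, with 684 other genes nearer, lay farthest of the 7. This likeness rests on 4 libraries and 3 ratios that share Luc.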

How the data were processed

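Reads were filtered for quality by the authors, aligned with TopHat against GRCh37, and turned into gene levels by Cufflinks (version 2.1.1, Ensembl annotation, non-coding regions masked, multi-read and fragment bias correction). The deposited FPKM thus already carry the authors' scaling to depth and transcript length, and a listed 0 can be a failed estimate. Samples were grouped by their titles, 1 library per group. Where 166 entries repeat a symbol, a named gene was given by whichever entry had more FPKM on average.

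Log2 ratios of FPKM plus 1 were taken in Python 3.11.15 (pandas 2.3.3, numpy 2.4.6) over the 11769 entries that reached FPKM 1 in any library, which understates the change of low genes. The ratio and the 1.5-fold call were tested on simulated data with changes of 2-fold or more. Smaller changes, the 20% threshold, the rescalings, the motif search and the distances were not simulated. Figures were drawn with matplotlib 3.10.9. Calls are fold thresholds without a test. The genes, the lists, written from general knowledge, and the thresholds were chosen with earlier results of these data known. Named genes were the 7 enzymes, KIAA1324, from each list at most 4 genes called in WT at FPKM 5 or more in a library, the counterparts RRM2B, TK2 and DGUOK, CCNF, MKI67 and PCNA (another gene of this rule is not reported here), and the 5 genes nearest in pattern; other genes (the remaining folate, purine and regulator genes named, ENOSF1, AFMID, MOB1B and NME1-NME2) were named after their values were seen. Gene models came from GENCODE on GRCh37. RefSeq windows before start sites, on GRCh38, were found for 7 of 7 genes and matched exactly to GRCh37. No protein sequence was used here. The alternatives were pseudocounts of 0.1 and 5, 3 rescalings, a 2-fold and the 20% threshold, and other filters, and the background over genes at FPKM 20 or more in Luc was added after seeing the data.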

Additional observations from a re-analysis of the deposited data

How the results depend on the processing

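With 1 library per group, no replicate could be left out. No paired analysis was possible because each group has a single library. The medians of the 7 enzymes stayed below 0 in WT, 3NQ and the library labelled ΔTM under both other pseudocounts and the 3 rescalings, from −0.51 to −0.45 in WT. Called enzymes in WT against Luc numbered 0 at 2-fold, 7 at the 20% threshold and 0 after rescaling to equal sums without KIAA1324, which raised the ratios in WT by 0.056. Against the library labelled ΔTM, they numbered 0 at 2-fold, 6 at the 20% threshold and 3 after scaling by upper quartile or by median of ratios. At that threshold, 2 were called in WT against 3NQ and 1 in 3NQ against the library labelled ΔTM. For the library labelled ΔTM against Luc, the ratio of TYMS changed sign, to 0.060 (median of ratios), 0.032 (upper quartile) and 0.035 (sums without KIAA1324), and that of RRM2 to 0.023 (median of ratios). With an FPKM of at least 5 required in a library, fewer genes were tested. Those called at 1.5-fold against Luc then numbered 323 in 3NQ (511 as reported) and 223 in the library labelled ΔTM (366). They numbered 334 in WT against 3NQ (526) and 239 in 3NQ against the library labelled ΔTM (393). The share that these make up of the genes tested was not computed. The unknown depth leaves the counting error of each ratio unknown.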
